A study of Mus musculus with 18 samples.

Results

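The genes of the 2 activin subunits, Inhba and Inhbb, and of follistatin, Fst, were read across whole ovaries of mice with excess luteinizing hormone (LH) and of wild-type mice. Every probe set that the platform annotation assigns to 1 of the 3 genes was taken. These are 3 of 6137 genes named by a probe set with 1 symbol, and 3 probe sets of 13179, 1 for each gene, all on chip B and none on chip A, and all 3 were among the 6408 probe sets bright enough to be tested. The groups were the following, each hybridised to 1 array of each of 2 oligonucleotide chip types, so that no condition was repeated on a chip. Transgenic (LHCTP) ovaries came from CF-1 mice of 2 months (cystic), from CF-1 mice of 5 months (granulosa cell tumour), from CF-1 mice of 5 months given human chorionic gonadotropin, hCG (luteoma), from CF-1xC57BL/6 F1 hybrids of 2 months (cystic) and from such hybrids of 5 months (luteoma). Wild-type ovaries came from CF-1 mice and from the hybrids, each at 2 and at 5 months. For the tumour's chip B array, which carries all 3 genes, the description gives 2 months where the title and source give 5 months, and the title was followed. The labels call most samples an ovary of 1 mouse and the 2-month CF-1 wild type of chip A an ovary of mice, and do not say whether animals were pooled. The LHCTP transgene encodes an LH beta subunit lengthened with a peptide that prolongs its life in blood, under a promoter of pituitary gonadotropes, so that the hormone reaches the ovary through the blood.

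Activins are dimers of beta subunits: Inhba encodes beta A and Inhbb encodes beta B. The same beta subunits pair with the alpha subunit, encoded by Inha, to form inhibins, which lower the pituitary's release of follicle-stimulating hormone (FSH), while activins raise it. In the ovary granulosa cells of growing follicles are the main source of these subunits, and follistatin, a secreted protein, binds activin and keeps it from its receptors. After luteinization by LH or hCG, follicles normally make less of the beta subunits. These statements are background.

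The arrays of chip B had trimmed mean intensities of 542 to 921 units before scaling, a 1.70-fold range, and 28.0% to 29.6% of its probe sets stood at or above the detection limit of 581 units after scaling to a common trimmed mean. Every value of the 3 members lay above that limit. Levels below are scaled intensities. Log2 differences are taken after values were raised to a floor of 291 units, to which no member fell. Levels are compared only within a probe set, or within a sum over a list of cell type markers, which can span both chips. On 15 control probe sets of the opposite strand, 3 arrays of chip B resembled each other more than the rest: those of the tumour, the hybrid luteoma and the CF-1 wild type of 5 months correlated with each other at 0.951 to 0.970, and with the other 6 arrays at 0.592 to 0.840. This trio holds both the highest and the lowest array of every member, the tumour and the hybrid luteoma.

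The 250 bases before the annotated start are shown for Inhba and Inhbb, the pair whose readings shared an order across conditions, from RefSeq's mouse assembly GRCm38.p6. The table used matched 2 of the 3 genes, and Fst is named only. The Inhba window is chr13:16011601-16011850 on the plus strand and the Inhbb window is chr1:119422249-119422498 on the minus strand. Capitals mark a match to any of 7 short motifs searched on both strands.
Inhba: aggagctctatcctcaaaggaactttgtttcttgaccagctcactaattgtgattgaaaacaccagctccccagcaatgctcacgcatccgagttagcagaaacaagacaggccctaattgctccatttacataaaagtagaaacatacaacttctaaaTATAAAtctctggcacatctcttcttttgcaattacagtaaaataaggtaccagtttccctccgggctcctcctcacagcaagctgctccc
Inhbb: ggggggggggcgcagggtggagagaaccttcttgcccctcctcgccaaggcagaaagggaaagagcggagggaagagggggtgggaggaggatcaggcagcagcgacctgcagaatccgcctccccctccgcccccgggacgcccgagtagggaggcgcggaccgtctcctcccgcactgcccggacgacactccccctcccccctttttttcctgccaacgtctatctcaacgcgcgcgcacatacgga
The Inhba window had a GC content of 43.2%, and 19.0% of 32817 promoter windows of the same length had a lower one. The Inhbb window had a GC content of 68.0%, above that of 87.8% of the windows, whose median was 52.4%. The single match was TATAAA in the Inhba window, beginning 91 bases before the start, a motif held by 12.4% of all windows. Neither window held TGACGT, the core of the cyclic AMP response element, found in 6.46% of windows. Neither held TGACTCA, the AP-1 site, found in 4.46%, or AGGTCA, the core to which orphan nuclear receptors bind, found in 14.0%. The Smad box CAGAC, found in 42.2% of windows, was absent from both, as were the letters AGATAA of a GATA factor site, found in 9.99%, and the CCAAT box, found in 33.8%. With 1 match in all, no motifs overlapped.

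All 3 genes read highest in the granulosa cell tumour, and Inhba and Inhbb read lower in each of the 4 other transgenic ovaries than in any wild type. Outside the tumour the mean of the transgenic ovaries stood below that of wild types 4.47-fold for Inhbb, 1.93-fold for Inhba and 1.44-fold for Fst. In whole ovaries fewer cells of a type and less RNA per cell cannot be told apart. None of these patterns passed the additive test of genotype over all 8 untreated ovaries, in which the tumour and the other transgenic ovaries run opposite ways.

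These orders can be set beside the rest of the chip. Of 2286 probe sets tested on chip B, 19.7% were highest in the tumour, as all 3 members were, 2.01% had all 4 other transgenic arrays below all 4 wild types, as Inhba and Inhbb had, and 0.437%, or 10 probe sets, showed both. The other 8 of those 10 included the probe sets of Dgat2, an enzyme of triglyceride synthesis, Fam3c, a secreted protein, Septin4, a filament-forming GTPase, Npdc1, Mark2, a kinase of cell polarity, and Eif3d, a subunit of a translation initiation factor, and 2 with no gene symbol here. Dgat2 lay below the floor of 291 units in each of the 4 other transgenic ovaries, at -122 to 241 units.

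**Figure D1:**
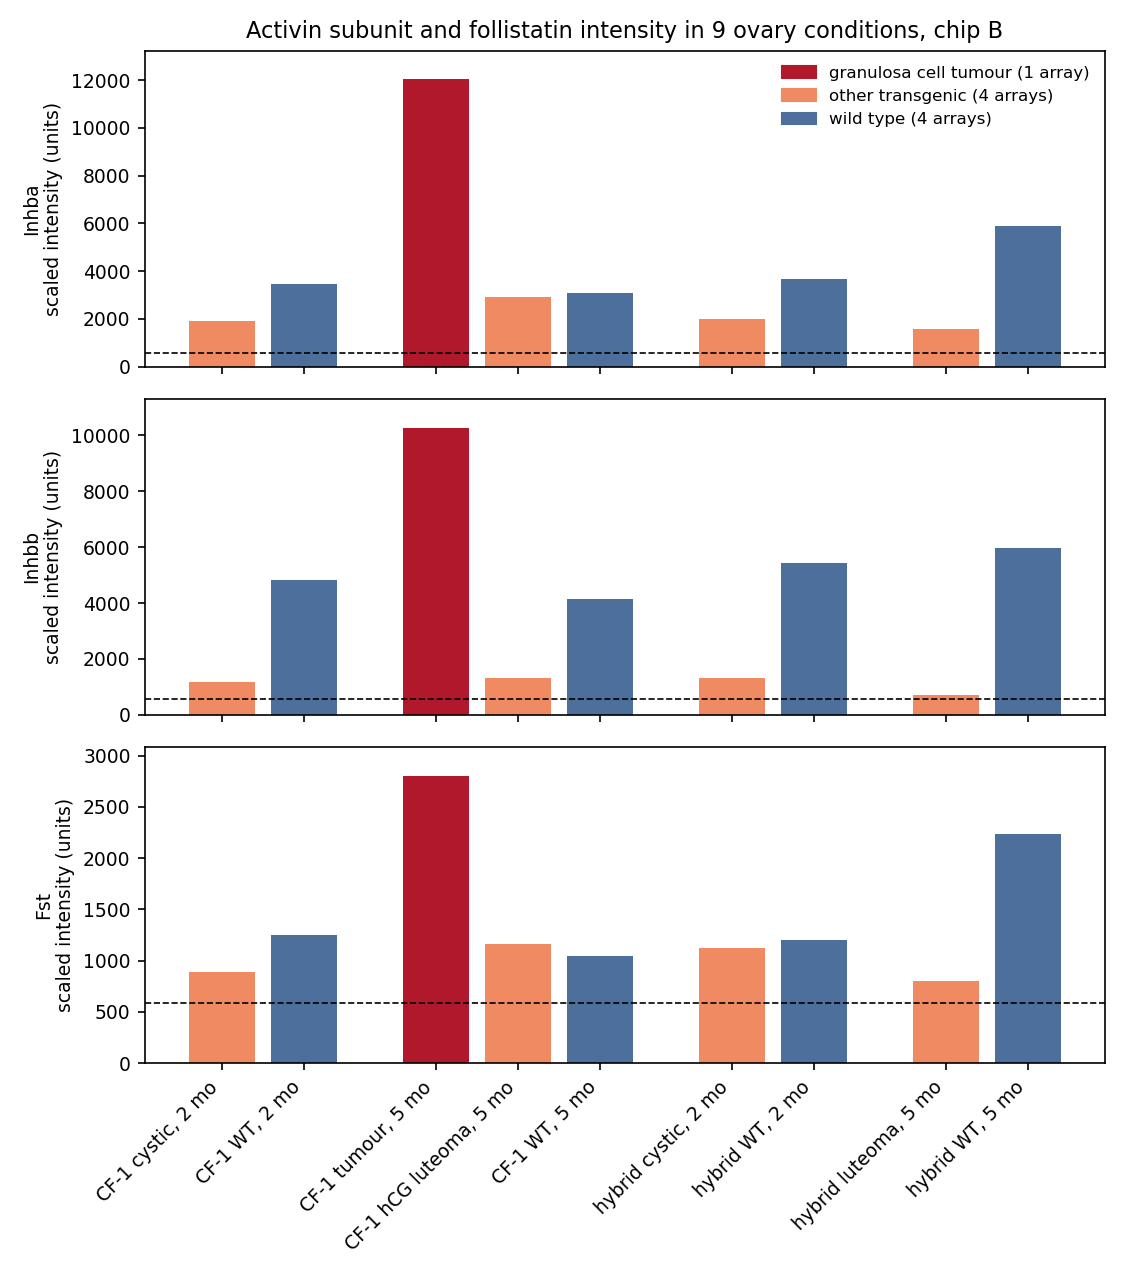
Scaled intensity of Inhba, Inhbb and Fst (vertical axes, units, from 0) on the 9 arrays of chip B, 1 bar per array, with the detection limit of 581 units as a dashed line. The tumour bar is the tallest for each gene (12029, 10279 and 2804 units), and the other transgenic bars of Inhbb (711 to 1331 units) are all shorter than the wild-type bars (4135 to 5987 units).

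Inhbb, the beta B subunit, read 10279 units in the tumour. It read 711 units in the hybrid luteoma, 1331 in the hCG-treated CF-1 luteoma, 1331 in the hybrid cystic ovary and 1190.3 in the CF-1 cystic ovary. Wild-type ovaries read 5987 units in the hybrid at 5 months, 5452 in the hybrid at 2 months, 4135 in CF-1 at 5 months and 4839.8 in CF-1 at 2 months. The 3 kinds of ovary did not overlap: the lowest wild type stood 3.11-fold above the highest of the 4 other transgenic ovaries, and the tumour stood 1.72-fold above the highest wild type. Within the 4 other transgenic ovaries the mean was 1141 ± 294 units, against 5104 ± 798 units in wild types (SD, n = 4 each). In the order of levels, the gaps above and below the block of 4 wild types, 0.78 and 1.63 on the log2 scale, were larger than the spread between wild types (SD 0.23), as was the step of 0.74 down to the hybrid luteoma, while neighbours among the wild types and among the other 3 transgenic ovaries lay within that spread.

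Inhba, the beta A subunit, read 12029 units in the tumour. It read 1562 units in the hybrid luteoma, 2909 in the hCG-treated luteoma, 1977 in the hybrid cystic ovary and 1895 in the CF-1 cystic ovary. Wild types read 5892 and 3687 units in the hybrid at 5 and at 2 months, and 3080.3 and 3479.7 units in CF-1 at 5 and at 2 months. The tumour stood 2.04-fold above the next array, the hybrid wild type of 5 months. The other transgenic ovaries averaged 2086 ± 578 units and the wild types 4035 ± 1263 units (SD, n = 4 each). These 2 groups did not overlap, but only just: the hCG-treated luteoma and the CF-1 wild type of 5 months differed by 1.06-fold, a log2 gap of 0.08 beside a wild-type SD of 0.41. Gaps beyond that SD lay below the tumour (1.03), below the hybrid wild type of 5 months (0.68) and between the hCG-treated luteoma and the hybrid cystic ovary (0.56).

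Fst, follistatin, read 2804 units in the tumour. It read 797 units in the hybrid luteoma, 1159 in the hCG-treated luteoma, 1119 in the hybrid cystic ovary and 889.8 in the CF-1 cystic ovary. Wild types read 2234 and 1197 units in the hybrid at 5 and at 2 months, and 1045 and 1252 units in CF-1 at 5 and at 2 months. Here the groups overlapped, since the hCG-treated luteoma and the hybrid cystic ovary read above the CF-1 wild type of 5 months. The other transgenic ovaries averaged 991 ± 176 units and the wild types 1432 ± 542 units (SD, n = 4 each). The tumour exceeded the hybrid wild type of 5 months by a log2 gap of 0.33, less than the wild-type SD of 0.48, and the single gap beyond that SD lay between this wild type and the next (0.84).

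The first test asked what differs with the transgene whatever the strain and age, with genotype, strain and age as additive terms in limma over the 8 untreated ovaries. Of the 3 members 0 passed the adjusted threshold of 0.05, and over all 6408 probe sets the share called was 0%, with 642 at an unadjusted p under 0.05, where 320 are expected by chance. The log2 difference, transgenic minus wild type, was -1.45 ± 0.70 for Inhbb (SE; limma, unadjusted p = 0.0718, adjusted p = 0.558), -0.43 ± 0.58 for Inhba (adjusted p = 0.863) and -0.16 ± 0.41 for Fst (adjusted p = 0.927). The 4 transgenic values of Inhbb in this fit spanned 14.4-fold, from the hybrid luteoma up to the tumour, and those of the wild types 1.45-fold. Since no condition has a second array, each p-value rests on how far unlike conditions scatter about the additive fit, and says nothing of the spread among animals.

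With the tumour left out, Inhbb fell in the transgenic ovaries, by a log2 difference of -2.37 ± 0.25 (SE), or 5.19-fold (limma, unadjusted p = 3.9e-05, adjusted p = 0.0416), and was 1 of 7 probe sets called, 0.109% of those tested. Inhba differed by -1.17 ± 0.27 (adjusted p = 0.196) and Fst by -0.62 ± 0.30 (adjusted p = 0.548), neither past the threshold. Among the 8 fits that each left out 1 untreated array, Inhbb passed only in the fit without the tumour. Leaving out any 1 further array kept Inhbb between -2.55 and -2.03 but moved its adjusted p to 0.0798 to 0.237, so the direction held in each of these 7 fits and the call in 0.

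The hCG-treated luteoma was then added, with the tumour, the 4 other transgenic ovaries and the 4 wild types as 3 classes beside strain and age. This split sets apart the granulosa cell tumour named in the labels, pools cystic ovaries with luteomas, and was chosen after the values were seen. The other transgenic ovaries minus wild types gave a log2 difference of -2.19 ± 0.26 for Inhbb (SE; limma, adjusted p = 0.0569), the third lowest p of the 6408, -0.94 ± 0.28 for Inhba (adjusted p = 0.445) and -0.48 ± 0.27 for Fst (adjusted p = 0.841), so that 0 members passed, where 0.0312% of probe sets did, and Inhbb and Inhba had unadjusted p-values of 2.66e-05 and 0.00997. Each of these 4 ovaries has a wild type of its strain and age, and the matched differences were lower in 4 of 4 pairs for Inhbb (mean -2.19 ± 0.62), in 4 of 4 for Inhba (-0.94 ± 0.75) and in 3 of 4 for Fst (-0.48 ± 0.72; SD, n = 4 each).

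In the same fit the tumour minus wild types gave 1.55 ± 0.49 for Inhba (limma, adjusted p = 0.216), 1.12 ± 0.44 for Inhbb (adjusted p = 0.334) and 1.07 ± 0.48 for Fst (adjusted p = 0.391), all as log2 differences with SE. None of the 3 passed, against 1.01% of all probe sets, and the unadjusted p-values were 0.0130, 0.0350 and 0.0541 in the same order of genes. The tumour minus the other transgenic ovaries gave 3.31 ± 0.44 for Inhbb, or 9.95-fold, which passed (limma, adjusted p = 0.0238), 2.49 ± 0.49 for Inhba (adjusted p = 0.0625) and 1.55 ± 0.48 for Fst (adjusted p = 0.191), so that 1 of 3 members passed, against 0.952% of all probe sets. The tumour is 1 array here and is assumed to vary like the other classes. The call on Inhbb was lost when the hybrid cystic ovary was left out (adjusted p = 0.0706), and likewise for either 2-month wild type, the hybrid one (0.0678) and that of CF-1 (0.0644).

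**Figure D2:**
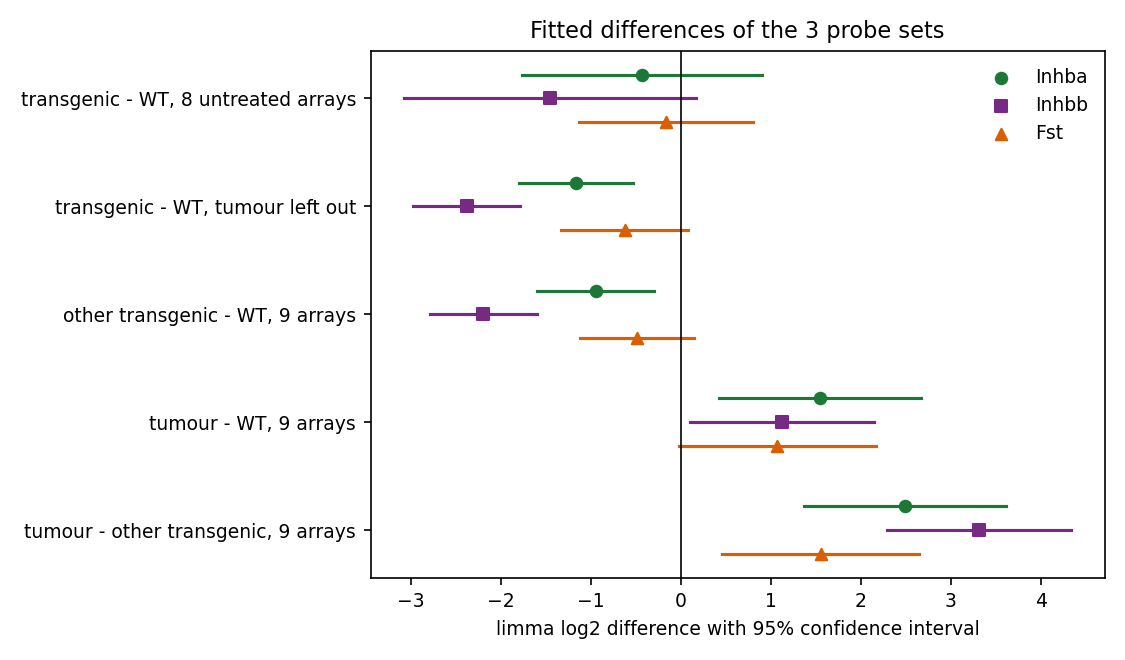
Log2 differences fitted with limma (horizontal axis) for Inhba, Inhbb and Fst, with 95% confidence intervals as lines, for genotype over 8 untreated arrays, genotype without the tumour, and the 3 contrasts of the 3-class fit over 9 arrays. The Inhbb interval without the tumour runs from -2.97 to -1.78, and with the tumour in the same class from -3.07 to 0.16.

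Tests of whether the genotype difference itself varied gave no call. The interaction of genotype with strain, hybrid minus CF-1, was -2.20 ± 1.17 for Inhbb, -1.95 ± 0.93 for Inhba and -1.26 ± 0.72 for Fst (log2, SE; limma, unadjusted p = 0.0984, 0.0721 and 0.122, adjusted p = 0.854 for each), and that with age was 1.15 ± 1.45, 0.91 ± 1.20 and 0.26 ± 0.89 in the same order of genes (adjusted p = 0.999987 for each). Age, 5 minus 2 months, gave additive differences of 0.71 ± 0.58 for Inhba, 0.53 ± 0.70 for Inhbb and 0.45 ± 0.41 for Fst (adjusted p = 0.506, 0.692 and 0.554), and strain, hybrid minus CF-1, gave -0.47 ± 0.58, -0.75 ± 0.70 and -0.11 ± 0.41 in the same order (adjusted p = 0.856, 0.798 and 0.959). The 3 age differences and the 3 strain differences changed sign without the tumour.

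Single arrays were next set against each other, with no test, counting members at least 2-fold apart. In the tumour against its CF-1 wild type of 5 months all 3 were at least 2-fold higher, where 4.37% of the chip B probe sets were: Inhba 3.91-fold, Fst 2.68-fold and Inhbb 2.49-fold. The beta A subunit thus differed more than the beta B subunit there, by 0.65 on the log2 scale. In the cystic ovaries of 2 months only Inhbb was at least 2-fold lower, 4.10-fold in the hybrid (1 of 3 members, against 4.11% of probe sets) and 4.07-fold in CF-1 (1 of 3, against 2.93%). Inhba was 1.86-fold lower in the hybrid and 1.84-fold lower in CF-1, and Fst 1.07-fold and 1.41-fold lower.

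The luteomas differed from each other in how many members were low. In the hybrid luteoma against its wild type all 3 were at least 2-fold lower, against 8.57% of probe sets: Inhbb 8.42-fold, Inhba 3.77-fold and Fst 2.80-fold. In the hCG-treated CF-1 luteoma against the CF-1 wild type of 5 months Inhbb was 3.11-fold lower (1 of 3, against 6.74%), Inhba was 1.06-fold lower and Fst 1.11-fold higher. The hybrid wild type of 5 months had the highest wild-type reading of all 3 genes. In all 4 pairs outside the tumour the lower reading of Inhbb exceeded that of Inhba (log2), by 1.16 in the hybrid luteoma, 1.55 in the hCG-treated, 1.14 in the hybrid cystic and 1.15 in the CF-1 cystic pair. The pairs with the tumour and with the hCG-treated ovary share 1 wild type. Both luteoma pairs also cross the control probe set profile, in opposite directions. The hybrid luteoma and the CF-1 wild type of 5 months have the profile of the tumour, and the array each was compared with does not.

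Against the tumour, both luteomas were lower in all 3 members. The hCG-treated luteoma of the same strain and age was 7.72-fold lower for Inhbb, 4.13-fold for Inhba and 2.42-fold for Fst, where 12.1% of probe sets were at least 2-fold lower. The hybrid luteoma was 14.4-fold, 7.70-fold and 3.52-fold lower for the same genes, where 5.99% were. These 2 comparisons share the tumour array. The hybrid luteoma shares the control probe set profile of the tumour and the hCG-treated luteoma does not.

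Across age within transgenic mice, the CF-1 tumour of 5 months was at least 2-fold higher than the CF-1 cystic ovary of 2 months in all 3 members, where 7.83% of probe sets were, at 8.64-fold for Inhbb, 6.35-fold for Inhba and 3.15-fold for Fst. In the hybrid, 0 of 3 members were at least 2-fold lower in the luteoma of 5 months than in the cystic ovary of 2 months, where 8.62% of probe sets were, and the folds were 1.87 lower for Inhbb, 1.27 lower for Inhba and 1.40 lower for Fst. In wild types, 0 of 3 were at least 2-fold apart between 5 and 2 months, where 12.7% of probe sets were in CF-1 and 6.21% in the hybrid. The widest wild-type difference was that of Fst in the hybrid, 1.87-fold higher at 5 months, beside 1.20-fold lower in CF-1. All of these age pairs except that of the hybrid wild types cross the control probe set profile. In each pair that crosses it, the 5-month array has the profile of the tumour and the 2-month array does not.

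**Figure D3:**
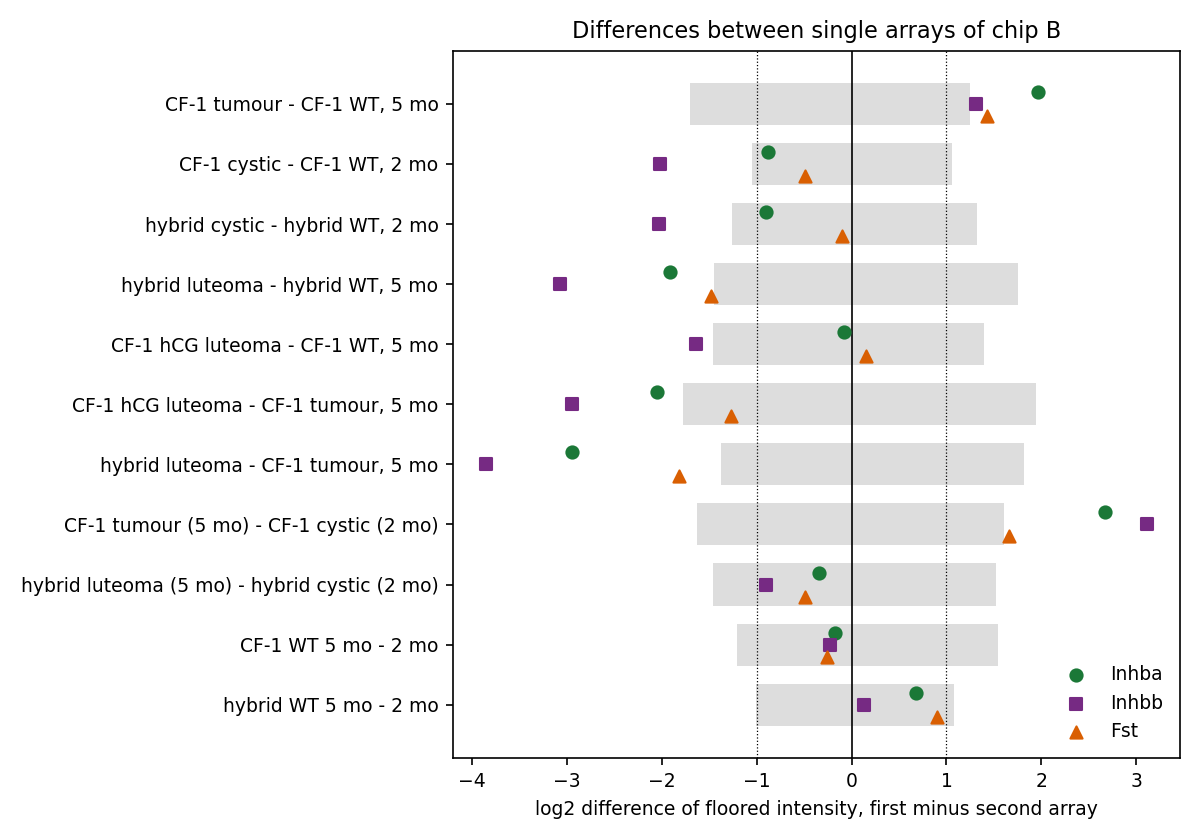
Log2 difference between 2 single arrays of chip B (horizontal axis) for Inhba, Inhbb and Fst in 11 pairs, with the grey bar spanning the central 95% of the 2286 probe sets tested and dotted lines at 2-fold. Inhbb lies left of the grey bar in all 4 pairs of a transgenic ovary other than the granulosa cell tumour and its wild type, and all 3 genes lie right of it in the tumour pair.

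The alpha subunit, whose presence makes a dimer an inhibin, had another order of levels. Inha is on chip A and read 14779 units in the tumour, 12184 in the hybrid luteoma, 24219 in the hCG-treated luteoma, and 25615 and 15427 in the hybrid and CF-1 cystic ovaries, against 10402 to 19568 units in the 4 wild types. Its log2 difference was -0.09 for the tumour and 0.35 for the other transgenic ovaries, each relative to wild types (limma, adjusted p = 0.966 and 0.903). Inhbc, which encodes a further beta subunit known mainly from liver, had 1 of 3 probe sets tested and read 459 units in the tumour against 1051 in its wild type.

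Of 32 genes listed for the activin and inhibin pathway and its granulosa setting, 21 were on the chips and 14 were tested, and 0 of 14 passed limma's threshold in either direction for genotype, for the tumour or for the other transgenic ovaries. At an unadjusted p under 0.05 there were 1, 1 and 2 of the 14 in these tests, beside 642, 849 and 435 of all 6408 probe sets. Their median log2 difference was 0.46 in the tumour and -0.11 in the other transgenic ovaries, where the medians over all probe sets were 0.0077 and -0.0086. In the tumour pair 3 of the 14 were at least 2-fold higher and 1 was at least 2-fold lower, where 5.04% and 7.1% of the 6408 probe sets of both chips were. Hsd17b1, which makes estradiol from estrone in granulosa cells, read 16047 units in the tumour, 2547 to 4501 in the other transgenic ovaries and 4478 to 5765 in wild types, a log2 difference of 1.92 for the tumour (adjusted p = 0.0830). Gata4, a transcription factor of granulosa and theca cells, read 1494 units in the tumour against 679 in its wild type, and Ccnd2, the cyclin D of granulosa cell growth, 1030 against 337 units, although wild types of the hybrid read 1882 and 1525 units at 5 and at 2 months for Ccnd2.

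Among receptors and signal carriers, the type II activin receptor Acvr2a read 370 units in the tumour against 457 in its wild type, and Smad2 and Smad4, which carry the activin signal to the nucleus, read 972 against 987 and 2589 against 1572 units. Smad4 had 2 tested probe sets, and the one with the higher mean log2 is given. Furin, a protease that releases mature activin from its precursor, read 2477 and 2544 units in the hybrid and CF-1 cystic ovaries, against 1507 and 1188 units in their wild types, and its log2 difference for the other transgenic ovaries was 0.64 (adjusted p = 0.570). Acvr1, Acvr1b, Acvr2b and Smad3 were too dim to be tested, and Fshr, Lhcgr, Cyp19a1, Foxl2, Tgfbr3 and Fstl3 were not analysed here.

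**Figure D4:**
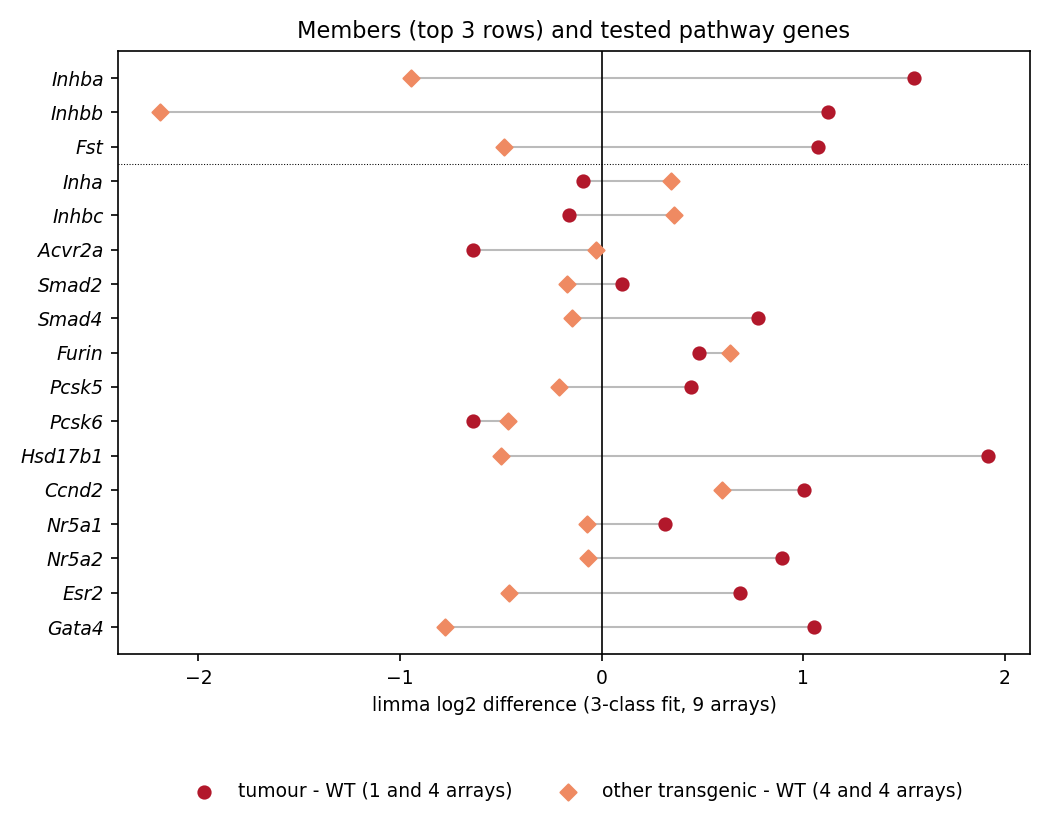
Log2 differences of the 3-class limma fit (horizontal axis) for the 3 members above the dotted line and the 14 tested pathway genes below it, with circles for the tumour minus wild types and diamonds for the other transgenic ovaries minus wild types. Inhbb has the longest span, from -2.19 to 1.12, and Inha has 0.35 and -0.09.

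Profiles over the 9 arrays were alike among the members, with Pearson's r of 0.95 between Inhba and Fst, 0.89 between Inhba and Inhbb and 0.80 between Inhbb and Fst, and 0.90, 0.90 and 0.71 without the tumour. These values share arrays and are descriptions. Among 892 other probe sets with 1 gene symbol, those most like Inhba were Eif3d (r = 0.90), Fam3c (0.88), Psma2, a proteasome subunit (0.87), Npdc1 (0.86) and Hsd17b1 (0.85). Those most like Inhbb were Eif3d (0.90), Dgat2 (0.90), the surface protein gene Cd24a (0.89), Nrep (0.89) and the phosphatase gene Ptpn13 (0.87), and those most like Fst were Nrep (0.85), Eif3d (0.85), Hsd17b1 (0.82), Thrap3 (0.81) and Npdc1 (0.81). Of these 5 genes, 0 for Inhba, 1 for Inhbb and 1 for Fst stayed among the 5 most alike without the tumour. Cd24a, which stayed for Inhbb at r = 0.95, read 1104 to 1476 units in the other transgenic ovaries and 2168 to 3937 units in wild types, with no overlap, and 2613 units in the tumour, within the wild-type range. Dgat2 lay below the floor of 291 units in each of the other transgenic ovaries, at -122 to 241 units. Eif3d read 421 to 1042 units over the 9 arrays, on both sides of the detection limit of 581 units.

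Marker lists of the cell types in the ovary were read beside these results. Of 12 granulosa markers other than the members, 8 were tested, and their summed level was 69722 units in the tumour, 47073 to 70065 in the other transgenic ovaries and 52686 to 57597 in wild types. The low Inhbb readings stood beside granulosa sums both above and below those of wild types. The hybrid and CF-1 cystic ovaries had sums of 70065 and 61974 units. Of the 8 markers 0 had all 4 other transgenic ovaries below all wild types. Bright probe sets weigh most in a sum: Inha read 25615 units in the hybrid cystic ovary against 13445 in its wild type. Wt1 went the other way, at 4027 against 5302 units. The part of granulosa cell number in the Inhbb readings was not tested. Inha, Hsd17b1, Nr5a1 and Nr5a2 are in both this list and that of the pathway. In the tumour 4 of the 8 markers read above every wild type and 3 below.

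Lists of other cell types were read on the same arrays. Epithelium and oviduct markers, 7 of 7 tested, summed to 1674 units in the tumour. Their sums were 10379 to 23287 units in the other transgenic ovaries and 19104 to 29264 in wild types. Of the 7, 5 had the other transgenic ovaries below all wild types, an order not counted over both chips. Between the highest such ovary and the lowest wild type, Krt18 differed by a near tie, 1448.29 against 1448.48 units. Pax8 read 508 against 521 units there, both under chip B's detection limit of 581. Krt8 (1664 against 1810) and Krt19 (1645 against 1834) had wider gaps. Epcam read 134 to 353 units in the other transgenic ovaries, all under chip A's detection limit of 368. In the tumour all 7 read below every wild type, and Ovgp1, Krt18 and Krt19 were among those under the floor. The part of these 7 markers in the Inhbb result was not tested. Luteal markers, 4 of 6 tested, summed to 14080 units in the tumour, 43262 to 90636 in the other transgenic ovaries and 32270 to 76457 in wild types. Oocyte markers, 5 of 8 tested, summed to 1938 units in the tumour, with Zp1 below 0, 2923 to 8484 in the other transgenic ovaries and 3235 to 9143 in wild types. The theca marker Cyp17a1, 1 of 5 tested, read 1727 units in the tumour, 5915 to 9578 in the other transgenic ovaries and 3968 to 6784 in wild types. Adipocyte markers, 4 of 6 tested, summed to 1177 units in the tumour, 1826 to 2557 in the other transgenic ovaries and 2383 to 8680 in wild types. The part of the luteal, oocyte, theca and adipocyte lists in the members' readings was not tested. The sums of endothelial, smooth muscle, macrophage, erythroid and proliferation markers overlapped between the other transgenic ovaries and the wild types, and Alas2, which starts heme synthesis in developing red cells, was 1 of the 2 probe sets called higher in the other transgenic ovaries (log2 difference 2.30, limma, adjusted p = 0.0246).

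**Figure D5:**
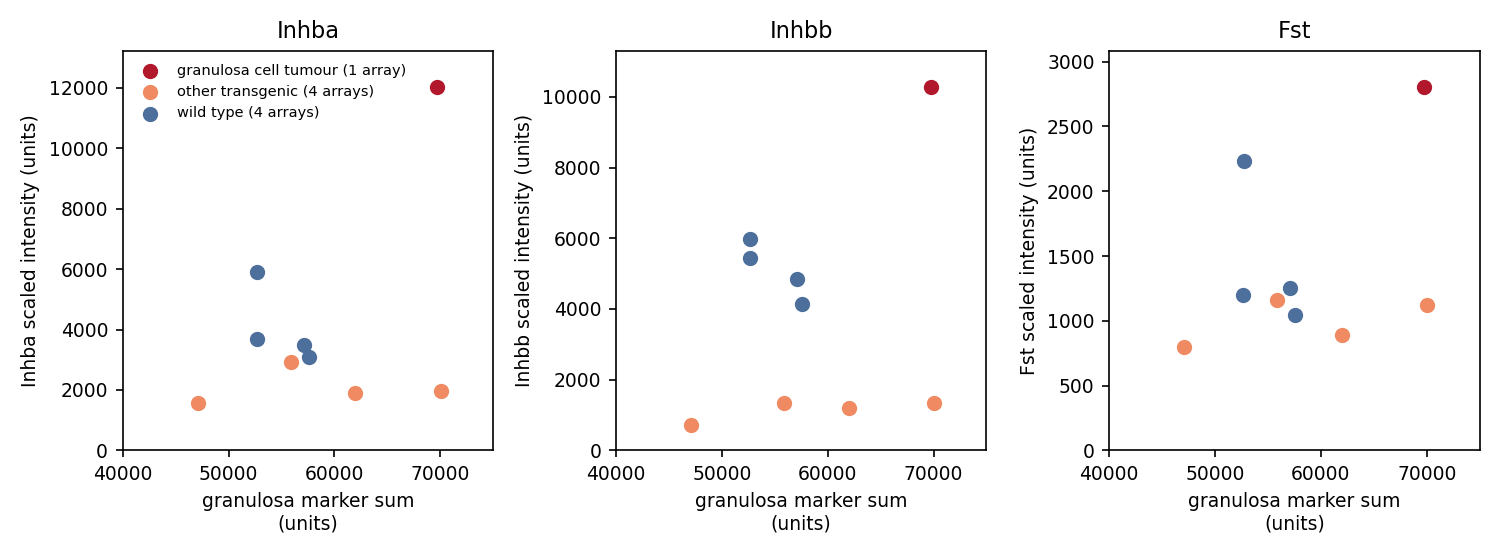
Scaled intensity of each member (vertical axes, units, from 0) against the summed level of 8 granulosa markers (horizontal axis, units, not from 0) on the 9 arrays. The 4 other transgenic points of Inhbb lie low across the whole horizontal range, at 711 to 1331 units, while the wild types lie at 4135 to 5987 units.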

How the data were processed

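RNA from 9 kinds of mouse ovary was read on 2 chip types, 18 arrays in all. The deposited files hold a linear intensity for each probe set, of which 13.6% to 30.1% per array lie below 0. The authors' software for these intensity values was not given in the sources used here.

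Within a chip type, arrays were brought to the same mean of the values lying between their percentiles 2 and 98. Lower values were set to a floor before taking log2; this floor is the median, across arrays, of whichever is larger: the size of percentile 5, or percentile 25. Left out were 76 control or shared probe sets, and 3 values were missing. Testing required 2 floors or more on 2 or more of the 9 arrays, which 4122 probe sets of chip A and 2286 of chip B met. Genes come from the platform annotation, with symbols updated by Entrez number for 5551 of 5560 entries with 1 symbol on chip A and 1993 of 2001 on chip B.

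limma 3.58.1 in R 4.3.3 fitted genotype, strain and age on 8 untreated arrays per chip type (4 residual degrees of freedom), with Benjamini-Hochberg adjustment over both chips at 0.05, and was tested on simulated data. Pairs of single arrays used a rule of 2-fold, with the brighter array at or above 2 floors. Where a pathway gene or cell marker had several tested probe sets, the one with the highest mean log2 stood for it. Members and lists were chosen with earlier results of these data known, and the named genes are the members, the listed pathway genes and the 5 most alike genes per member; genes that share the members' order, cell markers and Alas2 were named after their values were seen. The number of arrays limits the precision. Floors, scalings, filters, variance settings, arrays left out and models were varied.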

Additional observations from a re-analysis of the deposited data

Results flagged for a closer look

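The transgenic difference of all 3 genes ran opposite ways in the 2 strains at 5 months, with 1 array on each side. For Inhba it was -1.92 in the hybrid, the luteoma, and 1.97 in CF-1, the tumour. For Inhbb it was -3.07 in the hybrid and 1.31 in CF-1, and for Fst -1.49 in the hybrid and 1.42 in CF-1 (log2, transgenic minus wild type). It also ran opposite ways at the 2 ages of CF-1: 1.97 at 5 months and -0.88 at 2 months for Inhba, 1.31 and -2.02 for Inhbb, and 1.42 and -0.49 for Fst. The differences between single pairs were not tested. The interactions of genotype with strain and with age over all 8 untreated arrays, which average over the other factor, passed limma's threshold for 0 of the 3 genes.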

How the results depend on the processing

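Members' genotype differences kept their side of limma's threshold, except that Inhbb passed without the tumour, and changed sign in few settings. Fst was 0.11 with a term for the control profile. Beside age, this term sets apart only the hybrid wild type of 5 months. That setting thus repeats the fit without this array, and is no separate adjustment for the profile. With 1 array left out, Inhba ran from -1.17 to 0.074, Inhbb from -2.37 to -0.82 and Fst from -0.62 to 0.23, positive for Inhba and Fst without the hybrid luteoma (0.074 and 0.23) and for Fst without the hybrid wild type of 5 months (0.11). The count of probe sets called for genotype, 0 as reported, was 8 with scaling to a common median, 8 with trend and robust variances, and 0 to 7 with 1 array left out (7 without the tumour, and 1 and 2 without the 5-month and the 2-month wild type of CF-1). Age differences turned to -0.027 for Inhba, -0.39 for Inhbb and -0.0064 for Fst without the tumour, and otherwise reached 1.21, 1.16 and 0.84 with 1 array left out. Strain differences were 0.27, 0.17 and 0.35 for Inhba, Inhbb and Fst without the tumour, and 0.04 for Inhba and 0.28 for Fst without the hybrid luteoma; their lowest values with 1 array left out were -0.93, -1.21 and -0.45.

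In the 3-class fit, chosen after seeing the data like its alternatives, Inhbb in the other transgenic ovaries passed in 4 of 15 alternatives. It passed at -2.22 with scaling to a common median (limma, adjusted p = 0.0186) and at -2.19 with detection on at least 5 of 9 arrays (0.0301). It also passed at -2.19 with trend and robust variances (0.00917) and at -2.37 without the hCG-treated array (0.0416). Without the hCG-treated array this contrast repeats the fit with the tumour left out, given above, so that pass is no separate result. Over the 15 alternatives the adjusted p of Inhbb ran from 0.00917 to 0.510, and its value from -2.37 to -1.93 with 1 array left out. For the tumour minus the other transgenic ovaries, Inhba passed at 2.62 with median scaling, and at 2.49 both with detection on at least 5 arrays and with trend and robust variances. Inhbb stayed at 3.31 but lost its call without a filter on low values (adjusted p = 0.102), and ran from 3.05 to 3.68 with 1 array left out. Without the tumour, Inhbb stayed at -2.37 but lost its call with the floor doubled (0.112), with a floor of 20 units (0.116) and without a filter (0.431), and ran from -2.55 to -2.03 with 1 further array left out. The members' own values did not change with the floor or filter, so these calls moved with the other probe sets in the adjustment and the shared variance. All 132 alternative values of single pairs moved by less than the SD between wild types. A small difference could still change sign: with scaling to a common median, Fst in the hCG-treated luteoma against its wild type went from 0.15 to -0.010.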

Other observations

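Amh, the anti-Müllerian hormone of granulosa cells in small growing follicles, ran opposite to Inhbb in 3 of the 5 pairs of a transgenic ovary and its wild type, and the same way in the luteomas. It read 3913 units in the hybrid and 2916 units in the CF-1 cystic ovary, against 1443 and 1398 units in their wild types, while Inhbb read 1331 and 1190.3 units against 5452 and 4839.8 units. In the tumour Amh read 415 units against 1157 units in its wild type, where Inhbb read 10279 against 4135 units. In the luteomas both genes read lower: Amh read 837 units in the hybrid luteoma against 1705 units in its wild type, and 576 units in the hCG-treated luteoma against 1157 units in the CF-1 wild type of 5 months.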
